A study of Homo sapiens with 2 samples.

Results

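SOX proteins are transcription factors that bind and bend DNA through an HMG box, and they are sorted into groups by the likeness of that box. The genes described here are the 9 human members of group C (SOX4, SOX11 and SOX12), group E (SOX8, SOX9 and SOX10) and group F (SOX7, SOX17 and SOX18). They were chosen by family membership, and all 9 were found by symbol among the 57158 genes of the deposited table, with 1 identifier each. Group C factors are known from embryonic progenitor cells of many tissues. Group E holds SOX9, a factor of cartilage, testis and the bile duct lineage of the liver, and SOX10, a factor of neural crest and glia. Group F factors are known from definitive endoderm, the embryonic layer behind the gut and its glands, and from the lining of blood and lymph vessels.

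The samples were liver progenitors derived from CyT49, a human embryonic stem cell line. Cells at the definitive endoderm stage of day 2 received BMP4 at 50 ng/ml and FGF2 at 10 ng/ml, which are used to induce liver fate, over a suspension culture of 6 days in RPMI medium with 0.2% FBS (serum). The series holds 2 strand-specific poly(A) RNA libraries of this 1 group, named for day 8, with no control or earlier stage, so no contrast in treatment or time is given. The unit is RPKM, which divides reads by gene length and by sequencing depth, and each level under 0.5 RPKM stands in the table as 0.1, called the floor here. Depth, recovered from the steps between low values, was 25182071 reads for library 1 and 25263820 for library 2. Over 952 single-exon genes with a mean of 50 reads or more, the squared gap between libraries averaged 1.09 times that of counting alone, so they were counted as 1 sample. Separate cultures are not mentioned in the labels, so the difference between libraries may be technical, and counting intervals below cover counting error only. Detected means that both libraries reached 1 RPKM. All 13 hepatoblast markers on the list set beside the label were detected, while 59.8% of protein-coding genes were. The list was chosen with earlier results of these data known, so it gives no independent check of the label. Highest were APOA1 at 2188 RPKM, APOA2 at 812, TTR at 776 and AFP at 706 RPKM. Lowest were HHEX at 59.7, HNF4A at 44.7 and ALB at 6.68 RPKM. In such bulk RNA, fewer cells of a type and less RNA per cell cannot be told apart.

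The coding sequences of the HMG box are shown for SOX4 and SOX9, the highest member of group C and of group E, since the likeness of these boxes defines the groups and bears on how reads are told apart between members. Each covers 207 bases (69 codons) of the canonical transcript in GENCODE 44 on GRCh37, read 5′ to 3′, and capitals mark bases that differ from SOX4 at the same position.
SOX4: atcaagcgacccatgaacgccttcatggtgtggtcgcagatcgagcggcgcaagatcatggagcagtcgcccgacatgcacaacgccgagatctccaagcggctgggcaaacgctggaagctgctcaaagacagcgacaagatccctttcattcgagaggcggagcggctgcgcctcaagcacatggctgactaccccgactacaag
SOX9: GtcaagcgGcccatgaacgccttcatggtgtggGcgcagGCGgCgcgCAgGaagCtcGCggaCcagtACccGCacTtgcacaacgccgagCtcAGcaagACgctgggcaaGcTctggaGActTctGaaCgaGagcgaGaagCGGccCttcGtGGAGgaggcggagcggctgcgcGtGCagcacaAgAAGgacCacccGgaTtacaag
The SOX4 box lies on the plus strand at chr6:21594940-21595146, inside the coding part of the gene's single exon. The SOX9 box spans chr17:70117845-70118947 on the plus strand and is split by an intron between exon 1 and exon 2. In SOX9, 52 of the 207 bases differ from SOX4, and after translation the boxes differ at 25 of 69 residues.

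Over all 9 genes, the boxes of members of 1 group were 79.7% to 98.6% identical in residues (9 pairs), and those of members of different groups 58.0% to 71.0% (27 pairs). SOX8 and SOX9 were the closest pair, with 1 residue of 69 different, and SOX7 and SOX18 the least alike pair within a group, with 14 different. The groups also differ in gene structure. The boxes of SOX4, SOX11 and SOX12 lie in 1 exon, while an intron splits the box in all 6 members of groups E and F. Identical runs were short even within a group: the longest run shared by any pair of whole transcripts was 45 bases, between SOX9 and SOX10, and the longest within group C was 35 bases, between SOX11 and SOX12. The length of the sequenced reads is not given in the sources used here, so how many reads could fit more than 1 member was not tested.

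Of the 9 genes, 5 were detected, namely SOX4, SOX12, SOX11, SOX9 and SOX17. That is 55.6% of the members, beside 59.8% of all 19344 protein-coding genes, so the count stood near the background. Above the floor in both libraries were 7 of the 9 (background 65.1%), and 4 reached 5 RPKM (background 35.4%). Levels ran from SOX4 at 177 RPKM to SOX10 and SOX18 at the floor. The median of the members was 1.94 on the log2(RPKM + 1) scale, beside 1.77 for all protein-coding genes. By group, 3 of 3 genes of group C were detected, 1 of 3 of group E and 1 of 3 of group F.

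**Figure D1:**
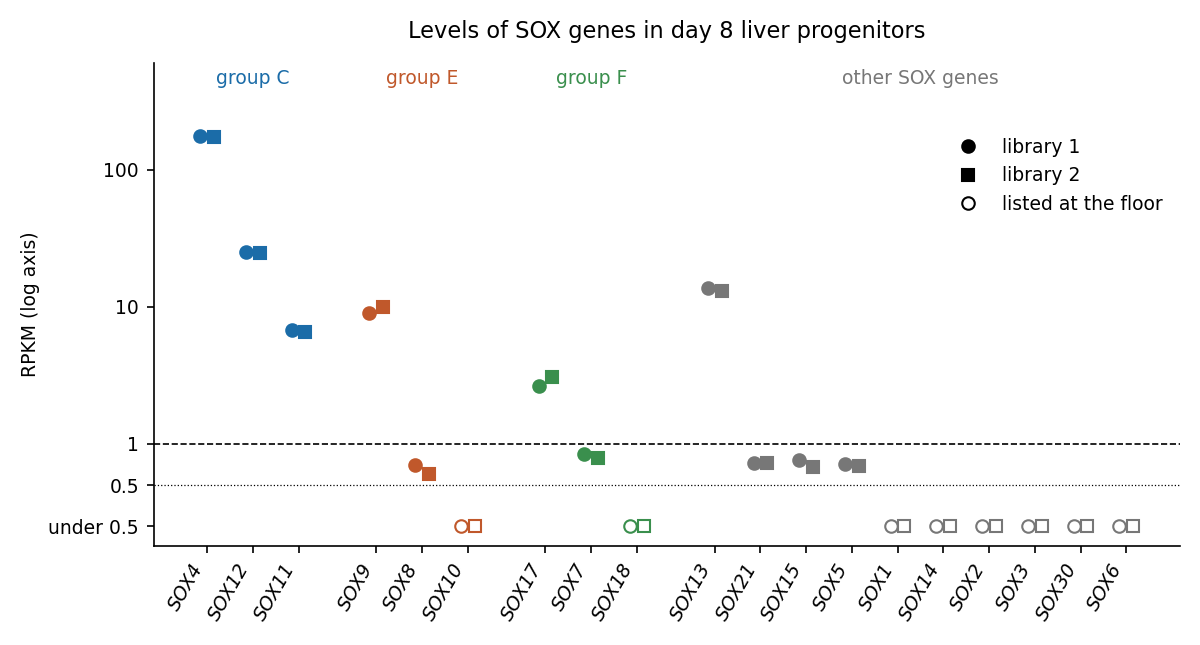
RPKM of each SOX gene in library 1 (circles) and library 2 (squares) on a log axis, by group, with open symbols for values listed at the floor and the dashed line at 1 RPKM. SOX4 lies highest at 178 and 175 RPKM, all 3 genes of group C lie above 5 RPKM, and SOX10 and SOX18 are at the floor.

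SOX4 had the highest level of all SOX genes measured. Known as a factor of progenitor survival and proliferation in many embryonic tissues, it had 178 RPKM in library 1 and 175 RPKM in library 2, a mean of 177 RPKM with a 95% counting interval of 175 to 178. Its level ranked 141 of 19344 protein-coding genes, above 99.3% of them and 72.9 times their median of 2.42 RPKM. By this per-length measure SOX4 stood above the liver factors FOXA2 (72.1 RPKM), HHEX and HNF4A. The gene, ENSG00000124766.4, has 1 exon on the plus strand of chromosome 6 from 21593982 to 21598850, and 54.6% of its 4869-base transcript is 3′ untranslated region. About 21843 reads in library 1 stand behind its value, so its level is the most precisely counted of the 9. An annotated transcript of ENSG00000283480 holds 135 windows of 36 bases of SOX4 on the other strand, and that gene had no value. The nearest detected genes by coordinate are CDKAL1, 361 kb before SOX4 at 4.83 and 4.92 RPKM, and the pseudogene SPTLC1P2, 2258 kb after it at 3.64 and 4.29 RPKM.

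SOX12, the group C member known from mouse as broadly expressed in the embryo, followed at 25.0 RPKM in library 1 and 24.6 RPKM in library 2. The mean of 24.8 RPKM (95% counting interval 24.2 to 25.4) ranked 1458, above 92.5% of protein-coding genes. For this gene a length of 4658 bases made both values whole within 0.0005 of a read, at 2929 reads in library 1 and 2898 in library 2. It was the first fit in a wide range of lengths tried, and whether it is the authors' length was not tested. No such length was found for the other 6 members above the floor, so their read numbers are approximate. SOX12 is ENSG00000177732.6, on the plus strand of chromosome 20 from 306196 to 310868. Unlike SOX4 it lies among other detected genes, with ZCCHC3 25.2 kb before it at 22.0 and 20.4 RPKM and NRSN2 16.6 kb after it at 15.5 and 14.1 RPKM. The antisense transcript NRSN2-AS1 overlaps SOX12 on the other strand and was listed at 0.981 and 0.783 RPKM. The libraries keep strand, but whether the counting used it is not given in the sources used here.

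SOX11, a factor of developing neurons and of other embryonic organs, was the lowest of group C at 6.79 RPKM in library 1 and 6.60 RPKM in library 2. Its mean of 6.69 RPKM (95% counting interval 6.46 to 6.94) still exceeded 70.4% of protein-coding genes, at rank 5726. The gene, ENSG00000176887.5, lies on the plus strand of chromosome 2 from 5832516 to 5841517, and 81.5% of its 9002-base transcript is 3′ untranslated region. RPKM divides by 1 gene length, and the transcript ends used in these cells were not measured. An lncRNA, ENSG00000242540, overlaps the gene on the same strand and was at the floor in both libraries. The nearest detected genes are far from SOX11: the pseudogene TMSB4XP2 lies 2167 kb before it at 7.22 and 8.14 RPKM, and RNF144A 1216 kb after it at 3.49 and 3.92 RPKM.

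Within group C the order SOX4, SOX12, SOX11 was the same in both libraries. The level of SOX4 was 7.14 times that of SOX12 in library 1 and 7.12 times in library 2, and 26.3 and 26.5 times that of SOX11. SOX12 stood at 3.68 and 3.73 times the level of SOX11. None of the 3 counting intervals overlapped. The 2 genes with the closest boxes, SOX4 and SOX11, were the highest and the lowest of the group. Summed, group C gave 210 RPKM in library 1 and 207 RPKM in library 2, which was 94.0% and 93.4% of the summed level of the 9 genes.

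**Figure D2:**
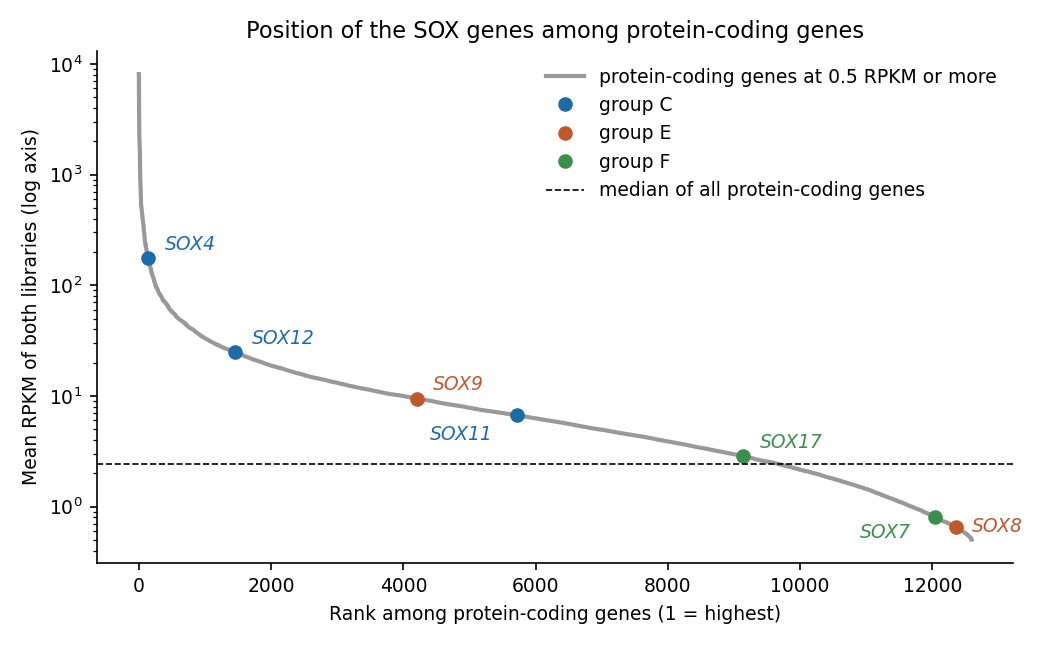
Mean RPKM on a log axis against rank for the protein-coding genes at 0.5 RPKM or more (grey), with the members above the floor as coloured points and the median of all protein-coding genes as a dashed line. SOX4 lies at rank 141 and SOX12 at rank 1458, SOX9, SOX11 and SOX17 lie nearer to the median of 2.42 RPKM, and SOX7 and SOX8 lie below it.

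In group E, SOX9 was the single detected gene. It had 9.04 RPKM in library 1 and 9.90 RPKM in library 2, a mean of 9.47 RPKM (95% counting interval 9.05 to 9.91) at rank 4202, above 78.3% of protein-coding genes. SOX9 therefore stood above SOX11 in both libraries, by 1.33 and 1.50 times. The gene is ENSG00000125398.5, with 3 exons on the plus strand of chromosome 17 from 70117161 to 70122557. The antisense lncRNA SOX9-AS1, which overlaps it, was at the floor in both libraries. The nearest detected genes were MYL6P5, a pseudogene 500 kb before it at 3.12 and 3.72 RPKM, and SLC39A11, 520 kb after it at 3.46 and 3.24 RPKM.

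The other genes of group E were low. SOX8, which shares roles with SOX9 and SOX10 in mouse, had 0.699 RPKM in library 1 and 0.599 RPKM in library 2, above the floor but under 1 RPKM. SOX9 was 12.9 times as high in library 1 and 16.5 times in library 2. SOX8 (ENSG00000005513.9, chromosome 16 from 1031770 to 1036979, plus strand) begins 0.174 kb from the lncRNA CEROX1, which runs on the other strand and was listed at 1.21 and 1.19 RPKM. The nearest detected gene after it, the calcium channel gene CACNA1H, lies 166 kb away and had 13.4 and 13.2 RPKM. SOX10 (ENSG00000100146.12, chromosome 22 from 38366693 to 38383429, minus strand) was at the floor in both libraries, which on its exon length leaves room for up to 60 reads in library 1. POLR2F, a subunit of RNA polymerases, overlaps SOX10 on the other strand and had 7.07 and 6.91 RPKM. On either side of SOX10 the nearest detected genes are MICALL1 at 7.18 and 7.54 RPKM and PICK1 at 5.99 and 5.63 RPKM, so SOX10 was at the floor among expressed neighbours. SOX9 and SOX10 transcripts share 10 windows of 36 bases.

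SOX17 was the detected gene of group F. It is a factor needed for definitive endoderm in mouse and used as a marker of that stage in stem cell cultures. Its level was 2.63 RPKM in library 1 and 3.08 RPKM in library 2, with a mean of 2.85 RPKM (95% counting interval 2.56 to 3.18) at rank 9142. That is 1.18 times the median protein-coding gene, above 52.7% of them. SOX9 had 3.44 and 3.21 times and SOX11 2.58 and 2.14 times the level of SOX17. SOX17 is ENSG00000164736.5, with 2 exons on the plus strand of chromosome 8 from 55370495 to 55373452. The nearest detected protein-coding gene before it, MRPL15, lies 309 kb away and had 21.1 and 23.1 RPKM. After it, the pseudogene SEC11B lies 61.9 kb away and had 10.7 and 9.75 RPKM.

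SOX7, a factor of endoderm and of early vessel and blood progenitors, had 0.836 RPKM in library 1 and 0.784 RPKM in library 2, above the floor and below 1 RPKM. SOX17 was 3.14 and 3.93 times as high. SOX7 (ENSG00000171056.6, chromosome 8 from 10581278 to 10588021, minus strand) is overlapped on the same strand by an identifier annotated as PINX1, which was listed at 1.47 and 1.45 RPKM. PINX1 transcripts hold 1234 windows of 36 bases of the SOX7 transcript, and transcripts of 2479 other genes in all hold at least 1 such window, so the value of SOX7 is uncertain. TNKS, the nearest detected gene before it, lies 941 kb away at 7.62 and 7.18 RPKM, and a separate PINX1 identifier 34.5 kb after SOX7 had 2.25 and 2.37 RPKM. SOX18, a factor of blood and lymph vessels (ENSG00000203883.5, chromosome 20 from 62678935 to 62680992, minus strand), was at the floor in both libraries. The floor leaves room for up to 23 reads on its exon length in library 1. Its close neighbour TCEA2, which begins 0.197 kb away on the other strand, was detected at 10.1 and 9.59 RPKM, and PRPF6, 14.5 kb before SOX18, at 28.6 and 30.4 RPKM.

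The full order of levels was SOX4, SOX12, SOX9, SOX11, SOX17, SOX7 and SOX8, and it was the same in both libraries. SOX7 and SOX8 were the neighbours in this order whose counting intervals overlapped, at 0.676 to 0.959 RPKM for SOX7 and 0.547 to 0.762 RPKM for SOX8. The libraries differed little for each gene. The log2 ratio of library 1 over library 2 was 0.02 for SOX4, 0.02 for SOX12, 0.04 for SOX11, 0.09 for SOX7 and 0.22 for SOX8, with counting intervals that included or touched 0. For SOX9 it was -0.13 (counting interval -0.26 to 0.00), a gap larger than that of 92.7% of the 5196 protein-coding genes within 2-fold of its level. For SOX17 it was -0.23 (interval -0.54 to 0.08), a gap larger than that of 93.9% of 4604 such genes. Both lay inside the central 95% of those genes, which ran from -0.15 to 0.15 around the level of SOX9 and from -0.25 to 0.25 around that of SOX17.

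**Figure D3:**
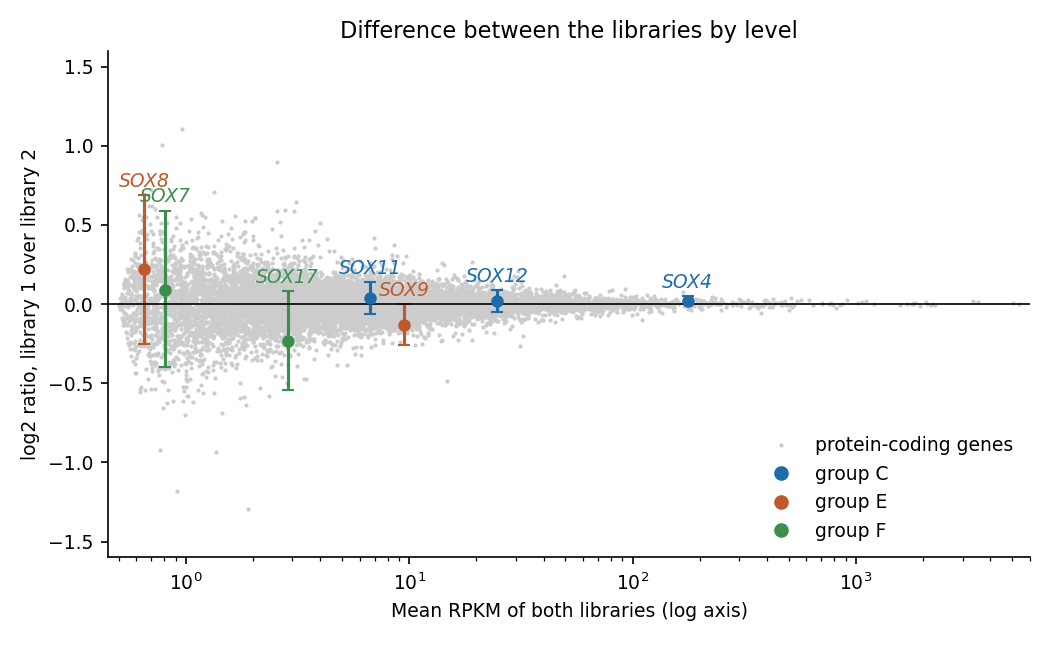
The log2 ratio of library 1 over library 2 against mean RPKM (log axis) for the 12590 protein-coding genes at 0.5 RPKM or more in both libraries (grey), with the members above the floor in colour and bars for their 95% counting intervals. SOX4, SOX12 and SOX11 lie near 0, SOX9 at -0.13 and SOX17 at -0.23 lie below it, and the intervals widen toward SOX8 and SOX7.

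At 1 RPKM, 5 of the 9 genes of groups C, E and F and 1 of the 10 other SOX genes, of groups B, D, G and H, were detected, beside 59.8% of protein-coding genes. At 0.5 RPKM the counts were 7 of 9 and 4 of 10, beside 65.1%, and the difference between these groups of genes was not tested. The detected gene was SOX13, of group D, at 13.7 RPKM in library 1 and 13.1 RPKM in library 2, a level between those of SOX12 and SOX9. SOX21, SOX15 and SOX5 were above the floor and below 1 RPKM, at means of 0.729, 0.719 and 0.701 RPKM. SOX2, the pluripotency and neural factor of group B, was at the floor in each library, and so were SOX1, SOX3, SOX14, SOX6 and SOX30. SRY, on chromosome Y, was left out. Over these 19 SOX genes, groups C, E and F held 93.1% of the summed RPKM in library 1 and 93.3% in library 2. SOX4 alone held 74.3% and 74.0%, SOX12 10.4% in both libraries, SOX13 5.69% and 5.55%, SOX9 3.77% and 4.18%, SOX11 2.83% and 2.79%, and SOX17 1.10% and 1.30%.

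SOX4 also stood above every one of 20 other genes that carry an HMG box, which include chromatin proteins and the WNT effectors of the TCF family. Of these, 17 were detected (85.0%, beside 59.8% of protein-coding genes), with HMGB1 at 55.2 RPKM, HMGB2 at 47.6, SSRP1 at 34.1 and HMGB3 at 24.4 RPKM highest. TOX, at 0.866 RPKM, and TOX2 and LEF1 were lowest; TOX2 was above the floor in library 2 only, at 0.502 RPKM, and LEF1 was at the floor in both. The level of SOX12 lay next to that of HMGB3. The median of the 20 genes was 3.58 on the log2(RPKM + 1) scale.

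Of 13 genes for proteins known to work with SOX factors, RNA of 5 was detected (38.5%), beside 59.8% of protein-coding genes. They were the WNT effector CTNNB1 (68.3 RPKM), the acetyltransferases EP300 (21.3) and CREBBP (13.1), SMAD3 (10.8) and POU2F1 (5.66 RPKM). The other 8 were at the floor in both libraries, among them the neural partners POU3F1, POU3F2, POU3F3, POU3F4, PAX3 and PAX6, POU5F1, the partner of SOX17 in early endoderm, and MEF2C, the partner of SOX18 in vessels. All 9 genes of a list of protein modifiers were detected, beside that same share; they serve SUMO and ubiquitin tagging, acetylation and phosphorylation, and some are known to act on SOX proteins. SUMO2 was highest at 116 RPKM and SYVN1 had 14.3 RPKM, while KAT5 at 8.12, SENP1 at 3.63 and FBXW7, which targets SOX9 for breakdown, at 3.17 RPKM were lowest.

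Genes listed as targets or candidate targets of group C, mostly from neurons and mesenchyme, were unevenly expressed, with 5 of 7 detected (71.4%) beside 59.8% of protein-coding genes. MARCKSL1, an actin-binding protein, had 278 RPKM, the Hippo pathway factor TEAD2 50.1 and the tubulin TUBB3 39.6 RPKM. CXCL12 at 2.95 and the neuronal protein DCX at 1.58 RPKM were lower, and the neuronal genes STMN2 and NHLH1 were at the floor. Their median was 1.98 on the log2(RPKM + 1) scale, beside 1.77 for all protein-coding genes. Which of them SOX4, SOX11 or SOX12 acts on in these cells was not tested.

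Around SOX9, 12 of 13 genes of the early bile duct lineage that had a value were detected (92.3%), beside 59.8% of protein-coding genes. Their median was 4.20 on the log2(RPKM + 1) scale. KRT19 stood at 409 RPKM, the adhesion molecule EPCAM at 123, the Notch effector HES1 at 56.1 and PROM1 at 26.3 RPKM. CFTR at 2.75 and ONECUT2 at 1.33 RPKM were low, and KRT7, a keratin of bile duct cells, was at the floor in both libraries. KRT19 and EPCAM are also hepatoblast markers, so these levels do not by themselves tell bile duct from hepatoblast. The list's summed level was 708 RPKM in library 1 and 715 RPKM in library 2.

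Cartilage genes that SOX9 is known to switch on were measured as a further list. Of these, 7 of 12 were detected (58.3%), close to the 59.8% of protein-coding genes. COL2A1, the main collagen of cartilage, had 29.8 and 29.5 RPKM, COL9A2 14.0 and 14.1, COL9A3 10.8 and 11.1, and the link protein HAPLN1 8.58 and 8.63 RPKM. The other detected genes were lower, with means of 3.46 RPKM for ACAN, 1.42 for COL11A1 and 1.17 for MATN3. COL9A1 was above the floor in library 1 only, at 0.507 RPKM, and COMP was at the floor in both libraries. SOX5 at 0.701 RPKM and SOX6 at the floor, the group D partners of SOX9 in cartilage, were both under 1 RPKM, and CHAD, MATN1 and COL11A2 were at the floor. The list's summed level was 70.2 RPKM in library 1 and 69.8 RPKM in library 2. The part of other cell types in these levels was not tested.

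Genes of neural crest and glia, the setting in which SOX10 is best known, were detected in 2 of 15 cases (13.3%), beside 59.8% of protein-coding genes. Both libraries listed 12 of the 15 at the floor, beside 6545 of the 19344 protein-coding genes. Those detected were ERBB3, a receptor that SOX10 activates in glia, at 16.0 RPKM and MITF at 2.09 RPKM. FOXD3, PAX3, TFAP2A, S100B and RET were at the floor, as SOX10 was. The summed level of the list was 19.7 RPKM in library 1 and 20.9 RPKM in library 2, most of it ERBB3.

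Of 19 endoderm genes listed beside SOX17 and SOX7 with a value, 15 were detected (78.9%), beside 59.8% of protein-coding genes. Their median was 5.35 on the log2(RPKM + 1) scale. The highest were the basement membrane chains LAMB1 at 122 RPKM, COL4A2 at 84.7 and COL4A1 at 82.3 RPKM and the endoderm and liver factor FOXA2 at 72.1 RPKM. FOXA2 and HHEX are also on the hepatoblast list, so these levels do not by themselves tell endoderm from hepatoblast. CXCR4, a surface marker of definitive endoderm, at 4.01 RPKM and DAB2, the lowest of those detected, at 3.18 RPKM were closer to SOX17 at 2.85 RPKM. KIT, on the same list, was higher at 11.1 RPKM. The earlier genes EOMES, MIXL1, GSC and CER1 were at the floor in both libraries.

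Vessel genes were detected in 7 of 17 cases (41.2%), beside 59.8% of protein-coding genes, and the 10 others were at the floor in both libraries. EFNB2 at 18.2 RPKM, EGFL7 at 15.4, PROX1 at 14.6 and NOTCH1 at 12.1 RPKM were highest, of which PROX1 is also a liver factor. ESAM, an adhesion molecule of endothelial cells, had 5.52 and 5.99 RPKM, NRP1 had 4.71 and 4.74 RPKM, and the VEGF receptor KDR averaged 1.61 RPKM. The 10 genes at the floor, as SOX18 was, were CDH5, TEK, TIE1, ERG, CLDN5, LYVE1, FLT1, FLT4, DLL4 and RASIP1. The summed level was 73.2 RPKM in library 1 and 73.5 RPKM in library 2.

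**Figure D4:**
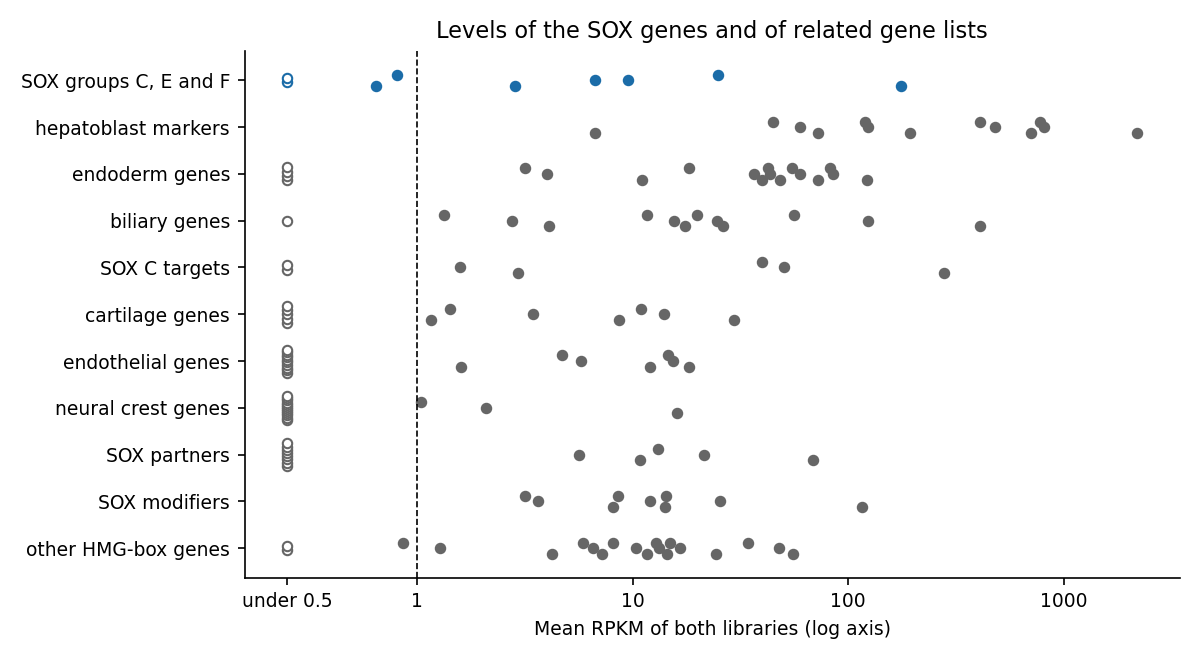
Mean RPKM (log axis) of the 9 SOX genes of groups C, E and F (blue, top) and of the genes of 10 lists (grey), 1 point per gene, with open points for genes at the floor in 1 or both libraries. The SOX genes spread from the floor to 177 RPKM, and the hepatoblast markers all lie above 5 RPKM. Of the neural crest genes, 12 of 15 are at the floor in both libraries, beside 6545 of 19344 protein-coding genes (not drawn).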

How the data were processed

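Strand-specific poly(A) RNA libraries were made from 2 µg of total RNA with dUTP marking of the second strand, per the labels' protocols. The authors deposited RPKM values for 57158 versioned Ensembl genes on hg19. The tools named are Cufflinks 2.2.0, STAR 2.3.0e and FastQC 0.10.1, per the submitters' processing notes, and Sailfish, per the series description; which of them made the RPKM, and from which annotation release, is not given in the sources used here. In the deposited values none lay between 0.1 and 0.5, while 0.1 was listed for 39548 genes of library 1 and for 39542 of library 2.

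Identifiers were joined without version to GENCODE 44 on GRCh37 (hg19), and 54428 (95.2%) matched. As background served all 19344 protein-coding symbols, each with the value of its highest identifier. Read totals came from single-exon genes, taking length as end minus start: 83.7% of 2186 genes in library 1 and 83.8% of 2212 in library 2, each under 500 reads, were whole within 0.02 of a read. That step and the variance ratio were tested on simulated counts, made with the same gene lengths as the step used. That test cannot show whether the depth is right where the authors' lengths differ. Read numbers of members are RPKM times GENCODE exon length and total, and are approximate, since the authors' gene lengths may differ. For levels, the intervals of 95% are exact Poisson intervals on the reads of both libraries together. For the log2 ratios, they are normal approximations from the approximate reads of each library. Both kinds cover counting error only, since PCR reads without molecular identifiers are not independent molecules.

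With 1 group no test between conditions was possible. The members and gene lists were chosen with earlier results of these data known. Named genes are all SOX genes except SRY, up to 4 highest and 3 lowest of each list (all of a list of 8 or fewer), and the nearest detected gene on each side of a member; other names, and the choice among genes tied at the floor, were made after the values were seen. CD24 and PECAM1 were not matched and have no value here, and some items that this rule covers are not reported here. HMG boxes were located by translating canonical coding sequences with Biopython 1.88, as 69 codons around a conserved motif. Windows of 36 bases were compared on both strands with all GENCODE 44 transcripts. Alternatives were limits of 0.5 and 5 RPKM, detection in either library, rescaled values, pseudocounts of 0.1 and 0.01, other rank backgrounds, and each library alone.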

Additional observations from a re-analysis of the deposited data

How the results depend on the processing

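No paired analysis was possible because the series holds 1 group. The number of members detected was 7 at a limit of 0.5 RPKM (beside 65.1% of protein-coding genes) and 4 at 5 RPKM (beside 35.4%); it was 5 with either library alone. The number of other SOX genes detected was 4 at the limit of 0.5 RPKM. Rescaled to a fixed sum per library over all genes, as TPM is, the levels were 463 for SOX4, 65.0 for SOX12, 24.8 for SOX9, 17.5 for SOX11, 7.48 for SOX17, 2.12 for SOX7 and 1.70 for SOX8. Rescaled over protein-coding genes without mitochondrial ones, they were 888, 125, 47.6, 33.7, 14.3, 4.07 and 3.26 in the same order. On both scales SOX7 and SOX8 exceed 1, so their call at that limit depends on the scale. SOX21, SOX15 and SOX5 exceed 1 there too. The rescaling multiplies every gene by 1 factor per library, and every value above the floor exceeds 1 on both scales. The counts are therefore those at 0.5 RPKM, 7 of 9 members and 4 of 10 other SOX genes, beside 65.1% of protein-coding genes. With floor values counted as 0, the group C share of the SOX sum was 87.7%, beside 87.4%. The members' median was 1.56 with a pseudocount of 0.1 (1.33 for all protein-coding genes) and 1.51 with 0.01 (1.28). Without mitochondrial, ribosomal protein and histone genes, the rank was 82 for SOX4, 1358 for SOX12 and 5620 for SOX11. Ranks from single libraries, an alternative chosen after seeing the data, ran from 139 to 144 for SOX4 and from 8871 to 9397 for SOX17. Depth limits the low genes: 0.5 RPKM on a gene of 2000 bp stands for 25.2 reads in library 1.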
